A study of Mus musculus with 8 samples.

Results

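The imprinted gene network was followed here through 10 genes: the noncoding RNAs Meg3, Rian, Mirg and H19, and the coding genes Dlk1, Grb10, Ndn, Peg3, Plagl1 and Mest. They were taken by gene symbol from the 24346 genes listed for each library, of which 18862 were above 0 somewhere and could be tested. All 10 were listed and above 0. They were chosen from the measured difference between the cultures compared here, so their values are given as a description and without p-values. The ADSCs, adipose-derived stem cells, were primary cultures from the gonadal fat of adult male wild-type BALB/c mice. They were grown as conventional 2D monolayers or in Matrigel, a basement membrane gel, as 3D organotypic cultures for which the study tried several shares of Wnt3a- and R-Spondin1-conditioned medium. Which of these media the sequenced cultures had is not given in the sources used here. No genetic change or drug separated the groups, but gel and medium changed together with the culture type. The 2D group held 4 libraries (mice 2, 3, 4 and 5) and the 3D group 4 (mice 1, 4, 5 and 7). Mice 4 and 5 thus stood in both groups.

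Imprinted genes are transcribed mainly from 1 parental allele, and the parental alleles are told apart by DNA methylation of imprinting control regions, laid down in the germ line of 1 parent. The methylated copy of such a region lies on the silent allele of some genes and on the active allele of others. In general, products of the paternal allele such as Dlk1, Peg3, Plagl1 and Mest have been linked to growth of the embryo, and products of the maternal allele such as H19 and Grb10 to its restraint. Many of these genes are high in fetal and progenitor tissue and fall after birth, and Dlk1, also called preadipocyte factor, is a classical inhibitor of fat cell formation. The libraries do not tell the alleles apart, so "maternal" and "paternal" below name the allele known to be active and are not measurements.

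The values are FPKM, fragments scaled by transcript length and by the mapped fragments of the library, and levels are given as deposited. Differences between the cultures are log2 values of 3D minus 2D, fitted with limma on quantile-normalized FPKM + 1, each with its standard error (SE). The added 1 understates the difference of genes with low FPKM. The estimated depth was between 14.4 and 17.3 M fragments per library (M, the unit in which FPKM counts mapped fragments), at which 3 fragments on a transcript of 2 kb give between 0.0867 and 0.104 FPKM. Between 15378 and 16134 genes were above 0 in a library. Log2 values correlated at 0.932 to 0.974 between 2D libraries, at 0.932 to 0.974 between 3D libraries and at 0.758 to 0.823 across the cultures.

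The labelled cell type, mesenchymal stem cells, was checked against 7 markers. Thy1 (CD90) was between 70.3 and 350.2 FPKM in 2D and at most 0.0862 FPKM in 3D, Eng (CD105) lay between 1.74 and 57.7 FPKM in 2D and at most at 0.203 FPKM in 3D, and Pdgfrb was listed at 0 in all 3D libraries. Of the 7 markers, 4 fell, 1 (Ly6a) rose and 2 (Cd44 and Nt5e) did not pass the test (limma, adjusted p below 0.05). Ly6a was at 1627, 1735 and 2607 FPKM in 3D mice 4, 5 and 7. In 3D mouse 1 it was at 50.3 FPKM, within its 2D range of 26.0 to 189 FPKM. Its call was lost in 6 of 8 fits that left out a library (adjusted p between 0.0789 and 0.105). Cd44 was lower in the values as deposited (adjusted p = 0.0314), and Nt5e without 2D mouse 2 (adjusted p = 0.0261). No marker of any list passed with the mouse as a block. The summed FPKM of 12 stromal markers, Col1a1 and Postn among them, lay between 2172 and 5495 in 2D and between 5.21 and 10.2 in 3D. That of 12 epithelial markers, Epcam and Cdh1 among them, lay between 32.8 and 783 in 2D and between 2082 and 2554 in 3D. Epcam and Cdh1 themselves were at most at 0.0310 and 0.725 FPKM in 2D. The sum of 783 in 2D mouse 4 was mostly keratins, with Krt8 at 296, Krt18 at 287, Krt19 at 125 and Krt7 at 74.7 FPKM. Pdgfrb, Dcn and Lum were at 0 in all 3D libraries, and Esrp1, Elf3 and Crb3 were at 0 in all 2D libraries. Of the markers that define mesenchymal stem cells, Thy1, Eng, Pdgfra and Pdgfrb were thus at or near 0 in 3D. Nt5e was at most at 0.388 FPKM there, and Cd44 and Ly6a were far above 0. The makeup of the cultures differed along with each member below, and its part in the members' values was not tested. In bulk RNA, fewer cells of a type and less RNA per cell cannot be told apart.

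In 2D, the noncoding RNAs Meg3 and Rian had the highest mean levels of the network, and in 3D all 4 noncoding members were at or near 0. Of the 10 members, 7 had every 2D library above every 3D library, which 21.8% of all genes tested also had. Plagl1 alone among the members had every 3D library above every 2D library, which 23.6% of all genes had, and Peg3 and Mest overlapped. In the fit, 5 members were lower and 1 was higher in 3D at an adjusted p below 0.05, and 4 were past it in neither direction. Of all 18862 genes, 3823 (20.3%) were lower and 4000 (21.2%) were higher. With the mouse as a block, a fit that rests on mice 4 and 5, none of the 10 passed, nor did any of all 18862 genes. Since the same contrast chose the members, nothing is read from these counts. By known allele, all 5 maternal genes had their 2D libraries above their 3D libraries. Of the 5 paternal genes, 2 had 2D above 3D, 1 had 3D above 2D and 2 overlapped. Nothing is read from this division either, for the same reason and because Meg3, Rian and Mirg lie in the same domain.

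**Figure D1:**
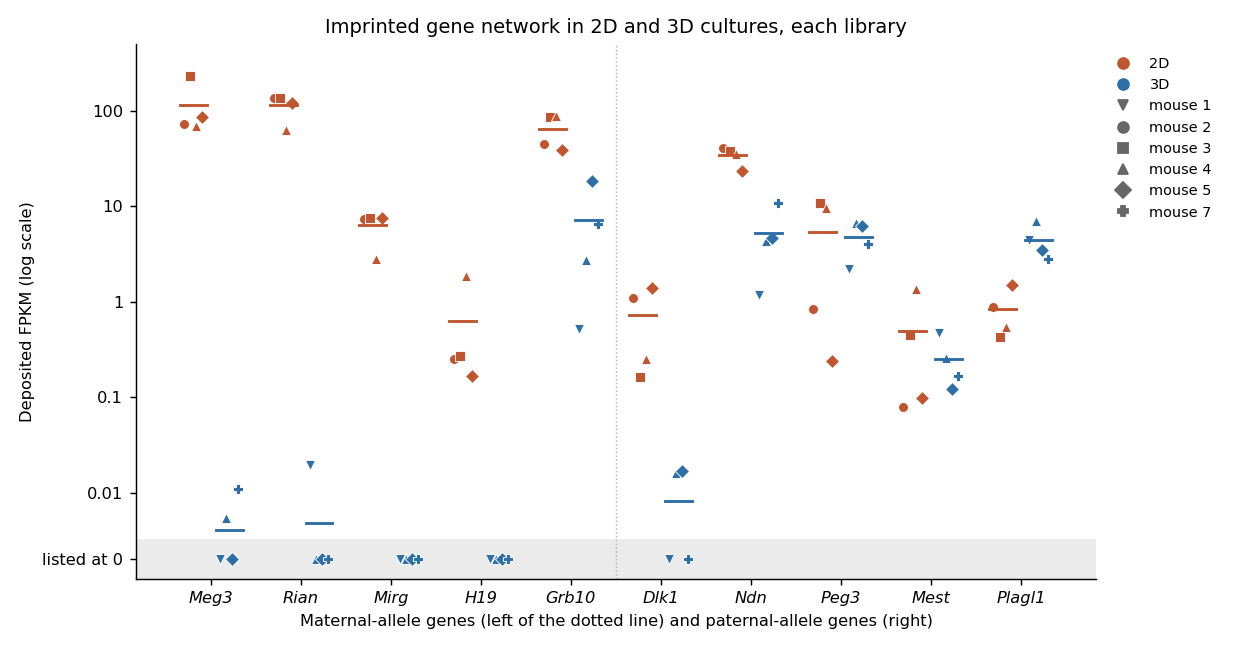
Deposited FPKM of the 10 members in each library (vertical log axis, with libraries listed at 0 in the grey strip), 2D in orange and 3D in blue, with a marker for each mouse and a bar at each mean above 0. Mirg and H19 sit in the grey strip in all 3D libraries, Peg3 and Mest overlap between the cultures, and Plagl1 lies between 2.79 and 6.94 FPKM in 3D, above all 2D libraries.

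Meg3, Rian and Mirg are noncoding RNAs of the maternal allele that lie in the same direction on chromosome 12, between Dlk1 and Dio3. Meg3 starts next to the control region of the domain, Rian holds box C/D small nucleolar RNAs in its introns, and Mirg holds microRNAs. By RefSeq positions on GRCm38.p6, the patched form of the mm10 build that the submitters' processing notes name, Meg3 spans chr12:109540996-109571729, Rian chr12:109603945-109661716 and Mirg chr12:109734981-109749458. Their RefSeq promoter windows run from 250 bases before to 50 after the annotated start on the plus strand. They are shown because these 3 RNAs were lower together in 3D while their annotated starts differ in CpG content. The Mirg window holds the microRNA genes Mir668 and Mir485. Whether transcription of Rian or Mirg begins at these annotated starts was not measured. Capitals mark TGCCGC, the core of the ZFP57 motif, or its reverse complement.
Meg3, chr12:109540746-109541045: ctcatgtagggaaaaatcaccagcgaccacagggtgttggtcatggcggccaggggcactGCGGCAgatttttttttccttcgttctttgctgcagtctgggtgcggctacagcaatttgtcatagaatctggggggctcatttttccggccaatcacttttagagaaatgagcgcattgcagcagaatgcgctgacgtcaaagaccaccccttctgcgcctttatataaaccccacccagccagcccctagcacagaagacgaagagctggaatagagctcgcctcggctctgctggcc
Rian, chr12:109603695-109603994: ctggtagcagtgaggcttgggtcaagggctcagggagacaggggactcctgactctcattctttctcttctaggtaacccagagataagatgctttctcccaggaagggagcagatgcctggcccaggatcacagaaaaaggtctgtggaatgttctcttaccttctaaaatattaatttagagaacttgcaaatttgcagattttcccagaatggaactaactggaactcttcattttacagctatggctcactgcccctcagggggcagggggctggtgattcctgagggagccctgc
Mirg, chr12:109734731-109735030: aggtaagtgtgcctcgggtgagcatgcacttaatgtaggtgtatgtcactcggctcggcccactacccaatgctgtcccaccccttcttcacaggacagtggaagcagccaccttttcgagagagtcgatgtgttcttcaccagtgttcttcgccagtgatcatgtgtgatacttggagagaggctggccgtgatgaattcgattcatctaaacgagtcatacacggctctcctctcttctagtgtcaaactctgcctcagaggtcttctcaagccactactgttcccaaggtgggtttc
The Meg3 window holds 13 CpG, the Mirg window 10 and the Rian window 0, beside a median of 7 (quartiles 3 and 20) over 32851 promoter windows. TGCCGC was found on either strand in 11.6% of these windows. It was found at position -190 from the start of Meg3 and in neither of the other windows. The TATA box letters TATAAA, sought on both strands, had 2 matches in the Meg3 window and was present in 13.6% of all windows, and in neither the Rian nor the Mirg window. AAGATGGC, the letters of YY1, and the CTCF motif, both sought on either strand, were in none of the 3 windows, and in 2.75% and 0.037% of all windows. A second RefSeq start of Meg3 has 1 CpG and no TGCCGC.

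Meg3 had 72.9, 230.3, 69.3 and 85.4 FPKM in 2D mice 2, 3, 4 and 5. In 3D it was listed at 0 for mice 1 and 5, at 0.00542 FPKM for mouse 4 and at 0.0108 FPKM for mouse 7. The groups were far apart, the 3D values were below what 3 fragments give, and the log2 difference was -6.46 (SE 0.40). Rian had 136, 137, 63.0 and 122 FPKM in the 2D libraries. It had 0.0193 FPKM in 3D mouse 1 and was listed at 0 in the other 3 libraries of 3D. The log2 difference was -6.54 (SE 0.23), and mouse 4 was the low library within 2D. Mirg had 7.38, 7.5, 2.78 and 7.60 FPKM in 2D, again lowest in mouse 4. It was listed at 0 in all 4 libraries of 3D, with a log2 difference of -2.86 (SE 0.28), which the added 1 holds down.

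Within 2D, Rian and Mirg kept nearly the same proportion, while Meg3 did not follow them. The ratio of Rian to Mirg lay between 16.0 and 22.7 over the 4 libraries. That of Meg3 to Rian was 0.536, 1.68, 1.10 and 0.702 for mice 2, 3, 4 and 5, so the highest was 3.14 times the lowest, against 1.42 times for Rian to Mirg. Mouse 3 had the highest Meg3 value and mouse 2 the lowest ratio to Rian. With 4 libraries, these ratios were given without a test.

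Of the other 71 genes listed between Dlk1 and Dio3, 7 were above 0 somewhere. By limma's test, 2 of these 7 (28.6%) were lower in 3D, beside 20.3% of all genes. Rtl1, a retrotransposon-derived coding gene of the paternal allele that is needed in the placenta, had 3.56, 5.37, 2.16 and 3.67 FPKM in 2D. In 3D it was at 0.0130 FPKM in mouse 5 and at 0 otherwise (log2 difference -2.31, SE 0.21, adjusted p = 0.000101). 6430411K18Rik, which RefSeq also names PEG11as, had 8.48, 11.3, 4.77 and 10.1 FPKM in 2D and at most 0.0555 FPKM in 3D (log2 difference -3.25). It lies inside the span of Rtl1, and that span also reaches into Meg3 and Rian on the opposite strand. The libraries were directional, but whether the counting used strand is not given in the sources used here, so reads of Rtl1 and of these noncoding RNAs may not be told apart. The ratio of Rian to Rtl1 lay between 25.5 and 38.2 over the 2D libraries, and that of Rian to 6430411K18Rik between 12.1 and 16.0. Meg3, Rian, Mirg, Rtl1 and 6430411K18Rik all had their lowest 2D value in mouse 4.

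**Figure D2:**
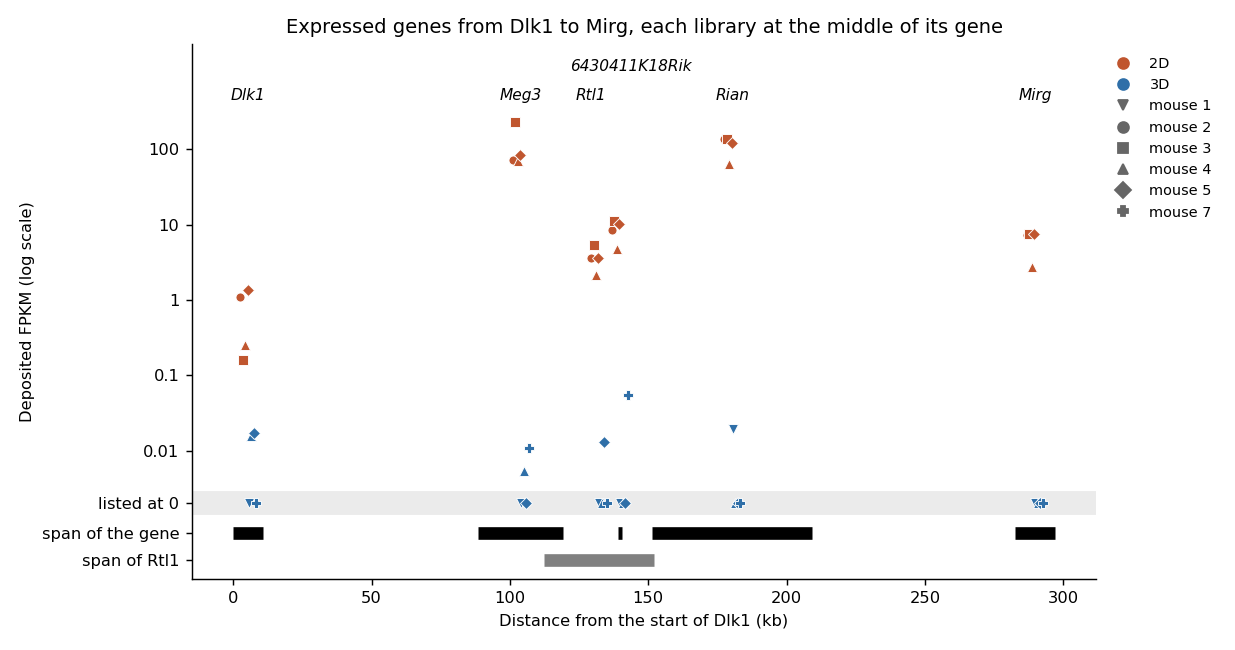
Deposited FPKM (vertical log axis, with 0 in the grey strip) of the expressed genes from Dlk1 to Mirg in each library, drawn at the middle of each gene against the distance from the start of Dlk1 in kb. Orange is 2D, blue is 3D, markers give the mouse, and the bars below give the gene spans. All 3D values of these 6 genes lie at or under 0.0555 FPKM, and mouse 4 is the lowest 2D library for all but Dlk1.

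The small RNAs encoded in the domain were mostly invisible to these libraries. Of 60 listed microRNA genes between Dlk1 and Dio3, 3 had a value above 0, each in 1 library of 2D (Mir433, Mir1193 and Mir666), and none had one in 3D. Of 7 listed small nucleolar RNAs, 1 had a value, DQ267101 at 4207 FPKM in 2D mouse 4, a very short gene on which few fragments weigh heavily. Long-RNA libraries of this kind are not made to capture small RNAs, so the Mirg values are those of the host RNA and say nothing of mature microRNAs. The RefSeq table holds mature sequences of 61 microRNA genes between Dlk1 and Dio3, of which 10 lie inside Mirg, 3 inside Rian and 2 inside Meg3. Mature sequences inside Mirg that share their seed, bases 2 to 8, with another one of the domain are shown in RefSeq's form, since the seed sets which messages a microRNA can pair with. Capitals mark the seed.
mmu-miR-453 (Mirg): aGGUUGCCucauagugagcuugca
mmu-miR-496a-5p (Mirg): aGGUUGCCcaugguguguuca
mmu-miR-410-5p (Mirg): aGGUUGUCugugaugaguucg
mmu-miR-494-5p (between Rian and Mirg): aGGUUGUCcguguugucuucuc
The first pair shares the seed GGUUGCC and the second pair GGUUGUC. Their levels were not measured.

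Dlk1 and Dio3 bound the domain on either side and are expressed from the paternal allele. Dlk1 (chr12:109452485-109463336), a membrane protein of the Notch ligand family, had 1.10, 0.161, 0.250 and 1.38 FPKM in 2D. In 3D it was at 0.0159 FPKM in mouse 4, 0.0170 FPKM in mouse 5 and 0 in mice 1 and 7. Every 2D library was above every 3D library, but the level was low throughout (log2 difference -0.83, SE 0.29). Mice 2 and 5 had the high 2D values, which was not the pattern of Meg3, Rian or Mirg. Dio3, the deiodinase that inactivates thyroid hormone, did not pass the test (limma, adjusted p = 0.0718), with every 2D library above every 3D library, and passed it without 2D mouse 2 (adjusted p = 0.0424) or 2D mouse 4 (adjusted p = 0.0434).

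H19 and Grb10 are the other maternal genes of the network. H19 (chr7:142575530-142578146), the noncoding RNA that shares enhancers with Igf2 and hosts a microRNA, had 0.248, 0.269, 1.84 and 0.167 FPKM in 2D and was at 0 in every 3D library. Mouse 4 held most of the 2D signal. The log2 difference was -0.69 (SE 0.26) and -0.40 without 2D mouse 4. Grb10 (chr11:11930499-12037428), an adaptor that restrains insulin and IGF1 receptor signalling, had 45.0, 85.8, 88.5 and 38.5 FPKM in 2D. It had 0.520, 2.75, 18.5 and 6.58 FPKM in 3D mice 1, 4, 5 and 7. The groups did not overlap (log2 difference -3.44, SE 0.79). Within the same mouse, the log2 difference of Grb10 was -4.56 in mouse 4 and -0.80 in mouse 5. Grb10 is expressed from the paternal allele in neurons through another promoter, and the values here are per gene and do not separate its promoters.

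Ndn, the gene of necdin, a protein of the MAGE family that holds back cell division and fat cell formation, remained detectable in 3D. Ndn (chr7:62348277-62349928) had 40.8, 37.6, 34.9 and 23.4 FPKM in 2D and 1.19, 4.31, 4.62 and 10.9 FPKM in 3D. The highest 3D library, mouse 7, was below the lowest 2D library, mouse 5, with a log2 difference of -2.71 (SE 0.51). Necdin was lower in 3D in both mice that gave both cultures, by -2.75 in mouse 4 and -2.15 in mouse 5 on the log2 scale.

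Plagl1 was the member that was higher in 3D. It encodes ZAC1, a zinc finger transcription factor that binds other imprinted genes, Igf2, H19 and Dlk1 among them. Plagl1 (chr10:13090832-13131694) had 0.888, 0.427, 0.538 and 1.48 FPKM in 2D and 4.46, 6.94, 3.48 and 2.79 FPKM in 3D. All 3D libraries were above all 2D libraries (log2 difference 1.31, SE 0.31). Hymai, the noncoding RNA that overlaps Plagl1, had a mean of 0.0490 FPKM in 2D and 0.485 FPKM in 3D and was higher by limma's test with a log2 difference of 0.40. Overlap of the 2 genes means that reads of one may have been counted for the other.

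Peg3 and Mest did not separate the cultures. Peg3 (chr7:6703892-6730462), a zinc finger protein of the paternal allele, had 0.832, 10.7, 9.54 and 0.241 FPKM in 2D and 2.20, 6.65, 6.20 and 4.01 FPKM in 3D. The 2D libraries fell on both sides of all 3D libraries, with mice 3 and 4 above and mice 2 and 5 below. The log2 difference was 0.17 (SE 0.77), although the mean of the deposited values was lower in 3D (4.76 against 5.33 FPKM). It was negative without 2D mouse 2, 2D mouse 5 or 3D mouse 4, between -0.38 and -0.02. Within the same mouse the direction differed, with -0.57 in mouse 4 and 2.27 in mouse 5. Mest (chr6:30733506-30748466), a hydrolase-like protein of the paternal allele that rises in expanding fat tissue, had 0.0788, 0.450, 1.34 and 0.0980 FPKM in 2D and 0.472, 0.255, 0.120 and 0.168 FPKM in 3D. Its log2 difference was -0.29 (SE 0.23), and -0.06 without 2D mouse 4. Mest overlaps Copg2 on the opposite strand, with the same limit on counting.

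Windows at annotated starts of 4 of these genes are shown, with capitals as above. Where the germline control regions lie relative to these windows was not determined here. Peg3 and Grb10 lie on the minus strand and are printed in the direction of transcription.
Plagl1, chr10:13090582-13090881: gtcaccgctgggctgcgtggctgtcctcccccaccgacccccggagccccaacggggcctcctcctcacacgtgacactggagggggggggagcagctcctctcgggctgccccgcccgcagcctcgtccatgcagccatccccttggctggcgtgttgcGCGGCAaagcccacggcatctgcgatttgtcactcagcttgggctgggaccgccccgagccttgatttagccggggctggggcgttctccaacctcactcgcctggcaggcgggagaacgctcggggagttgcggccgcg
Peg3, chr7:6730370-6730669, minus strand: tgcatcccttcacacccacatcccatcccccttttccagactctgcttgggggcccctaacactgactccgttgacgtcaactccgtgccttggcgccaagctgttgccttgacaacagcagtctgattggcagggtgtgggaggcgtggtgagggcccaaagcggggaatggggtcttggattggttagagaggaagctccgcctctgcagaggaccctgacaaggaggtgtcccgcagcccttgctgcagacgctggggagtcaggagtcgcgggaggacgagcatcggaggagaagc
Mest, second start, chr6:30737800-30738099: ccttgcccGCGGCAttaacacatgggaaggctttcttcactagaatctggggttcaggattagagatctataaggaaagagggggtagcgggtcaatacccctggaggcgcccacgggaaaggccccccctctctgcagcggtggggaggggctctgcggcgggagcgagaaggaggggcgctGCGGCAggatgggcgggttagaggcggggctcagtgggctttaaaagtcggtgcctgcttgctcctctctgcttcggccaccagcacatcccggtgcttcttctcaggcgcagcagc
Grb10, first start, chr11:12037371-12037670, minus strand: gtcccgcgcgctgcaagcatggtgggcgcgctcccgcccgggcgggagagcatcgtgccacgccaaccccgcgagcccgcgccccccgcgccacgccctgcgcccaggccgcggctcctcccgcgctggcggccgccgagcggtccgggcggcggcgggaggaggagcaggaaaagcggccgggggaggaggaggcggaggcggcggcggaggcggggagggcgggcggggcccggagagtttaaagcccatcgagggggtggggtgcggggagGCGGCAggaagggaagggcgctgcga
They hold 26, 13, 17 and 45 CpG in this order. TGCCGC was found 1 time in Plagl1, at position -90, 2 times in Mest and 1 time in Grb10, and was not in the Peg3 window. Plagl1, which was higher in 3D, and Grb10, which was lower, both had a match. The Dlk1 and Ndn windows hold 9 and 11 CpG and that of the second Grb10 start 9 CpG, all without TGCCGC. DNA methylation and binding of ZFP57 were not measured in these samples, and a link between the matches and the levels was not tested.

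In 2D the levels ran from Meg3 (mean 114 FPKM, SD 77.5) and Rian (114, SD 35) through Grb10 (64.5, SD 26.4) and Ndn (34.2, SD 7.59) to Mirg (6.31, SD 2.36) and Peg3 (5.33, SD 5.56). Plagl1 (0.833, SD 0.473), Dlk1 (0.723, SD 0.609), H19 (0.631, SD 0.807) and Mest (0.492, SD 0.592) followed, all n = 4 libraries. Only Ndn and Mirg, of all neighbours in this order, had ranges that did not overlap. In 3D the order was Grb10 (7.09, SD 8.01), Ndn (5.25, SD 4.07), Peg3 (4.76, SD 2.06) and Plagl1 (4.42, SD 1.82), whose ranges overlapped, then Mest (0.254, SD 0.156), and the remaining 5 were under 0.01 FPKM. Mest was apart from both of its neighbours in 3D.

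The 2D libraries split into the same pairs for several members. Mice 3 and 4 had 18.9 times the mean Peg3 level of mice 2 and 5, 10.1 times the Mest level and 2.09 times the Grb10 level. Their mean H19 level was 5.08 times that of mice 2 and 5. In each case both libraries were above both others. For H19 the ratio rested on mouse 4 (1.84 FPKM), since mouse 3 (0.269 FPKM) was close to mouse 2 (0.248 FPKM). Dlk1 and Plagl1 went the other way, with 0.166 and 0.408 times the level in mice 3 and 4. Rian, Meg3, Mirg and Ndn did not divide this way. Among genes outside the network, Igf2 (44.0 times), Dcn (18.4 times), Hmga2 (2.20 times) and Impact (2.13 times) were higher in mice 3 and 4. Mki67, the proliferation marker (0.336 times), and Col1a1 (0.466 times) were lower in them. The Igf2 ratio also rested on mouse 4, at 6.22 FPKM, with 0.278 FPKM in mouse 3 and 0.0980 FPKM in mouse 2. The summed FPKM of 5 mesothelial markers, Msln and Upk3b among them, was 1.41, 853, 2218 and 0.333 in 2D mice 2, 3, 4 and 5, and that of the epithelial markers was 32.8, 193, 783 and 34.3. These sums split the mice the same way, and their part in the members' values was not tested. The epithelial sums of 2D were mostly those of keratins, with Cdh1 at most at 0.725 FPKM and Epcam at most at 0.0310 FPKM. The pairs were formed after the values were seen and have no label, so no test was made.

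**Figure D3:**
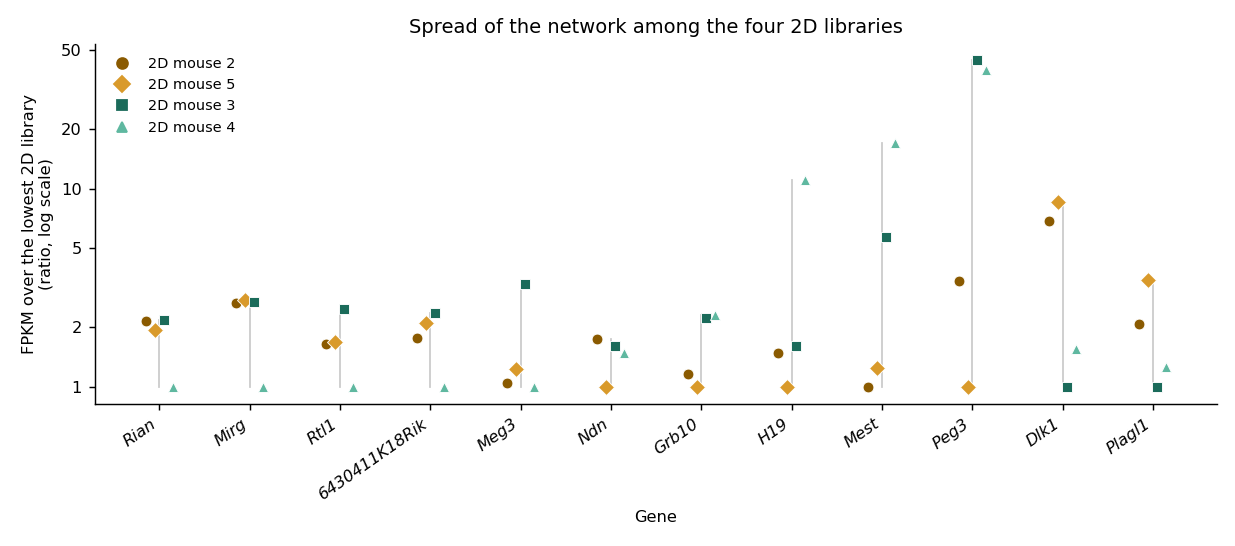
FPKM of each gene in the 4 libraries of 2D, divided by the lowest of them (ratio, vertical log axis), with brown and yellow for mice 2 and 5 and dark and light green for mice 3 and 4. Peg3 reaches 44.3 times its lowest library and Ndn 1.74 times, mice 3 and 4 lead Peg3, Mest and Grb10, and mice 2 and 5 lead Dlk1 and Plagl1.

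Mesothelial markers were the most abundant of the other cell types sought, in 2D mice 3 and 4 alone. Adipocyte markers Adipoq and Lep were at 0 in all 8 libraries, the sum of the 6 adipocyte markers lay between 11.4 and 51.7 FPKM in 2D and between 0.0876 and 0.565 FPKM in 3D, and 2 of the 6 (Pparg and Lpl) fell. Of 6 muscle progenitor markers, Myod1 was at 0 everywhere, the sum lay between 0.334 and 6.62 FPKM in 2D and between 0.0950 and 0.317 FPKM in 3D, and Des was lower (adjusted p = 0.0378), a call lost in 6 of 8 fits that left out a library (adjusted p between 0.0696 and 0.0791). The sum of 5 endothelial markers lay between 0.676 and 6.46 FPKM in 2D and between 0.0617 and 0.204 FPKM in 3D, with none past the test. Emcn, Pecam1, Kdr and Tek were each lower in some fit that left out a library, at most 2 of them in the same fit. The sum of 5 macrophage markers lay between 1.32 and 21.4 FPKM in 2D and between 7.09 and 38.6 FPKM in 3D, where Cd68 rose while Adgre1 and Lyz2 were at 0. By limma, Csf1r was higher without 3D mouse 1 (adjusted p = 0.00272) and Lyz2 lower without 2D mouse 3 (adjusted p = 0.0338), though neither passed with all libraries. None of the 5 mesothelial markers passed the test, with sums between 0.333 and 2218 FPKM in 2D and between 2.26 and 30.4 FPKM in 3D, and Upk1b passed it without 2D mouse 5 (adjusted p = 0.0347).

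The wider set of imprinted genes moved both ways. Of 64 further imprinted genes on the list, 63 were listed and 61 were above 0 somewhere, Zim2 and Slc22a2 being at 0 everywhere. In 3D, 16 (26.2%) fell, 11 (18%) rose and 34 did not pass (limma, adjusted p below 0.05), beside 20.3% and 21.2% of all genes, with a median log2 difference of -0.10. Of the 41 with a mean of at least 1 FPKM in either culture, 14 fell and 11 rose. Of the 12577 genes of the series that averaged 1 FPKM or more over all libraries, 3461 fell and 3542 rose in a separate fit. With the mouse as a block, a fit that leaves 1 residual degree of freedom and rests on mice 4 and 5, none of the 61 passed by limma. None of all 18862 genes passed it either. The adjusted p of the genes called without it lay between 0.111 and 0.308. An unadjusted p below 0.05 was reached by 22 of the 61, and by 5216 of all 18862 genes. Fitted on the 4 libraries of mice 4 and 5 alone, without a term for the mouse, 15 passed, 11 lower and 4 higher. Of all 18081 genes in that fit, 1432 were lower and 1788 higher. Leaving out 1 library gave between 13 and 18 genes lower and between 10 and 11 higher.

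**Figure D4:**
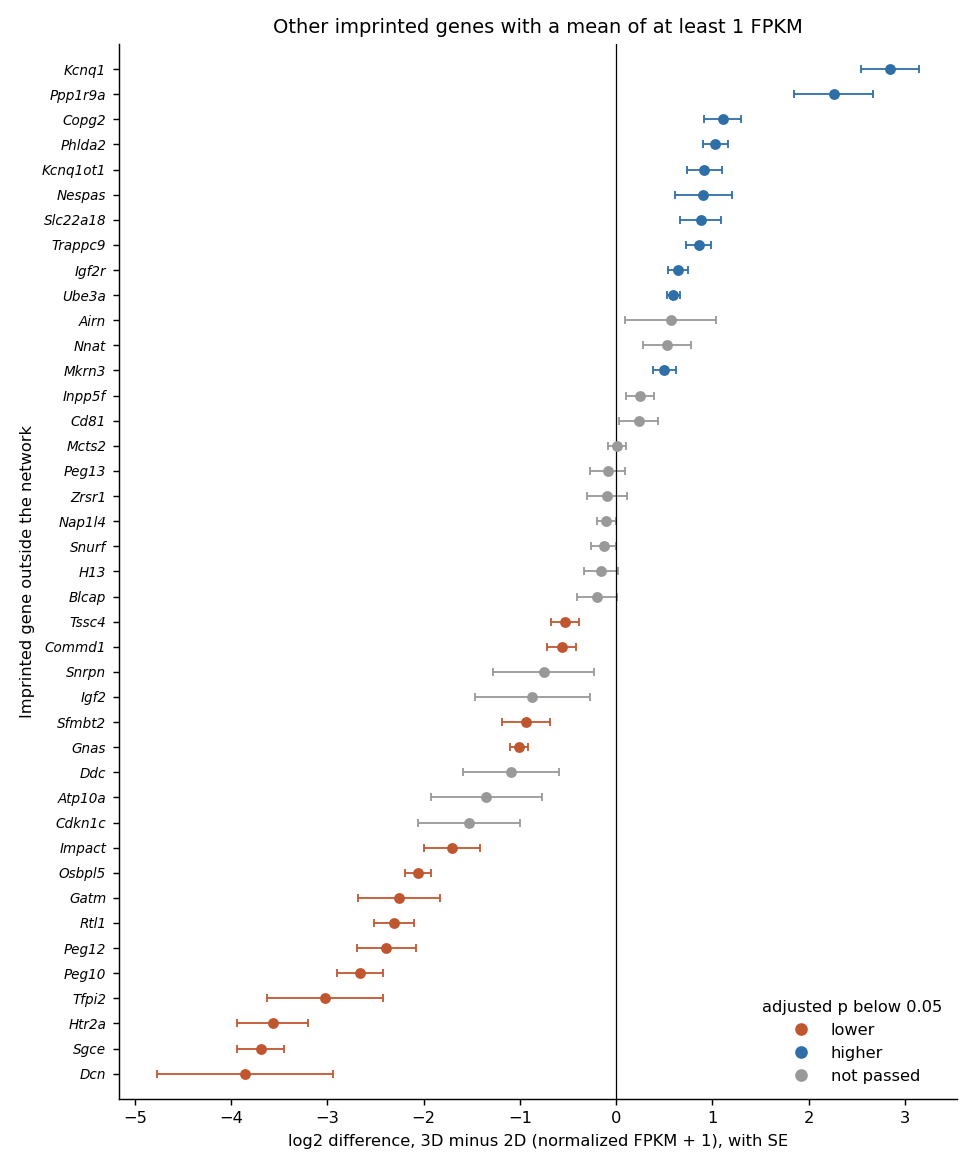
Fitted log2 difference of 3D minus 2D on normalized FPKM + 1 (horizontal axis, bars are the SE) for the imprinted genes outside the network that averaged 1 FPKM or more in either culture. Orange genes are lower and blue genes higher at an adjusted p below 0.05, and grey genes did not pass. Dcn and Sgce lie farthest to the left and Kcnq1 and Ppp1r9a farthest to the right.

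On distal chromosome 7, the neighbours of H19 fell apart by gene. Igf2, the growth factor next to H19, had 0.0980, 0.278, 6.22 and 0.0495 FPKM in 2D and at most 0.0512 FPKM in 3D, and did not pass (log2 difference -0.87, SE 0.60, adjusted p = 0.283). Igf2 and H19 shared their high 2D library, mouse 4, and without it the log2 difference of Igf2 was -0.20. In the Kcnq1 domain beyond, Kcnq1, a potassium channel of epithelia and heart, rose from at most 0.0613 FPKM in 2D to between 4.4 and 11.5 FPKM in 3D (log2 difference 2.84, SE 0.31, adjusted p = 0.000261). Kcnq1ot1, the paternal noncoding RNA inside it on the opposite strand, rose from 1.78 ± 0.395 to 5.37 ± 1.09 FPKM (SD, n = 4 each; adjusted p = 0.00543). Phlda2, which limits growth of the placenta, was at 0 throughout 2D and had between 0.899 and 1.53 FPKM in 3D (adjusted p = 0.000588). Slc22a18, an organic cation transporter, rose from 0.6 ± 0.396 to 2.41 ± 0.427 FPKM. Osbpl5, a lipid transfer protein, fell from 28.7 ± 3.42 to 6.20 ± 0.822 FPKM (log2 difference -2.06, SE 0.13, adjusted p = 1.98e-05). Tssc4 fell as well (21.2 against 13.7 FPKM, adjusted p = 0.0217), but not without 3D mouse 5 (adjusted p = 0.0594) or 3D mouse 7 (adjusted p = 0.0579). Cdkn1c, the cell cycle inhibitor p57, had 5.46, 0.0331, 1.87 and 2.63 FPKM in 2D and at most 0.181 FPKM in 3D, missed the threshold (adjusted p = 0.0504) and passed it without 2D mouse 3 (adjusted p = 0.0019). Cdkn1c also passed with a pseudocount of 0.1 (adjusted p = 0.0438), with only genes averaging 1 FPKM or more (0.0363) and without genes under 300 nt (0.0489). Cd81 and Nap1l4 did not pass. The Cd81 difference was positive in the normalized values (0.23) and negative in the values as deposited (-0.31), where its mean was 473.5 FPKM in 2D and 378 FPKM in 3D.

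Around Ndn on chromosome 7, the imprinted genes also went different ways. Mkrn3, the nearest listed gene with a mean of at least 1 FPKM, 67665 bases to the right, had 0.539 ± 0.141 FPKM in 2D and 1.61 ± 0.328 FPKM in 3D (log2 difference 0.50, adjusted p = 0.0121), a call lost when the fit kept only genes averaging 1 FPKM or more (adjusted p = 0.0926). Peg12 fell from 4.60 ± 2.45 FPKM, with 0.484 FPKM in 3D mouse 1 and 0 in the other 3D libraries (log2 difference -2.39, SE 0.31, adjusted p = 0.000636). Ube3a, a ubiquitin ligase imprinted in neurons, rose from 30.0 ± 1.38 to 37.6 ± 1.4 FPKM, with a log2 difference of 0.59 on normalized values and 0.31 as deposited. Snrpn, a splicing protein gene next to the control region, had 9.44, 1.29, 6.95 and 4.97 FPKM in 2D and 4.07, 1.54, 1.90 and 5.89 FPKM in 3D, and did not pass. Snurf, on the same transcripts, and Atp10a did not pass either.

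Beside Mest, Copg2, a coatomer subunit, rose from 14.4 ± 1.79 to 29.6 ± 7.52 FPKM (log2 difference 1.10, SE 0.19, adjusted p = 0.00247), and Cpa4 fell from 0.283 FPKM to 0 (adjusted p = 0.00445). Beside Grb10, Ddc, the aromatic amino acid decarboxylase, had 0.230, 0.930, 5.39 and 0.133 FPKM in 2D and at most 0.0751 FPKM in 3D (adjusted p = 0.121, and 0.0387 without 2D mouse 4). None of the 3 genes tested in the Peg3 domain passed, and none reached 1 FPKM.

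Elsewhere in the genome, 11 of 31 imprinted genes (35.5%) fell and 4 (12.9%) rose, beside 20.3% and 21.2% of all genes. Sgce and Peg10 are neighbouring paternal genes that share their control region. Sgce fell from 35.5 ± 6.80 to 1.91 ± 0.878 FPKM (log2 difference -3.70, SE 0.24, adjusted p = 2.24e-05) and Peg10 from 5.94 ± 2.22 to 0.145 ± 0.0823 FPKM (-2.66, SE 0.24, adjusted p = 0.000113), while Ppp1r9a of the same region rose (2.26, SE 0.41, adjusted p = 0.00337). Dcn, the matrix proteoglycan decorin, had 2.77, 15.2, 117 and 4.42 FPKM in 2D and was at 0 in 3D (adjusted p = 0.0113). It stands on both the imprinted and the stromal lists, and so its fall is also that of a stromal marker. Tfpi2, a protease inhibitor, was at 0 in 3D and between 1.39 and 18.2 FPKM in 2D (adjusted p = 0.00518), and Htr2a, a serotonin receptor, was between 4.07 and 17 FPKM in 2D and at most 0.0441 FPKM in 3D (adjusted p = 0.000216). Gnas, the stimulatory G protein subunit, fell from 691 ± 61.8 to 242 ± 24.5 FPKM (-1.01, SE 0.09, adjusted p = 0.000126) while its antisense Nespas was higher (0.90, adjusted p = 0.0413), a call lost in 7 of 8 fits that left out a library, at adjusted p values between 0.056 and 0.0988, and with a pseudocount of 0.1 (adjusted p = 0.0579) or no filter (adjusted p = 0.0707). Impact fell from 46.3 ± 19.3 to 11.8 ± 1.57 FPKM, and Gatm (4.53 against 0.0819 FPKM) and Slc38a4 (0.522 FPKM against 0) fell too. Sfmbt2 and Commd1 fell with adjusted p values of 0.0187 and 0.0195, and each lost its call in fits without 1 library (3D mouse 4 or 7 for both, and 2D mouse 2 or 5 for Commd1), at adjusted p values between 0.0502 and 0.053. Sfmbt2 also lost it in the values as deposited (adjusted p = 0.0612).

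Igf2r and Trappc9 rose. Igf2r, the maternal receptor that clears IGF2, went from 35.6 ± 2.83 to 44.4 ± 4.75 FPKM, with a log2 difference of 0.64 (adjusted p = 0.00169) that was 0.31 in the values as deposited. Trappc9 went from 10.8 ± 1.86 to 19.8 ± 1.86 FPKM (0.86, SE 0.13, adjusted p = 0.00125), while Peg13, which lies within it, did not pass. Airn, the noncoding RNA antisense to Igf2r, did not pass, with 1.59, 6.51, 6.0 and 1.66 FPKM in 2D and 7.55, 6.62, 11.9 and 2.85 FPKM in 3D. Nnat, Blcap, Mcts2, H13, Zrsr1 and Inpp5f did not pass either. Of these genes, Nnat and H13 passed in the values as deposited (adjusted p = 0.0422 and 0.0169), and so did Nap1l4 (0.0145). The listed pairs Kcnq1 and Kcnq1ot1, Igf2r and Airn, Nnat and Blcap, Zrsr1 and Commd1 overlap on opposite strands, and Snrpn and Snurf, Mcts2 and H13, and Peg13 and Trappc9 on the same strand, with the limit on counting given above.

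Genes within 250 kb of a member that are not on the imprinted lists also went both ways. Of 26 tested, 5 (19.2%) were lower, 9 (34.6%) were higher and 12 did not pass, beside 20.3% lower and 21.2% higher of all genes. Of the 20 protein-coding ones 4 (20%) were lower and 7 (35%) higher. The nearest coding neighbours with a mean of at least 1 FPKM were Mrpl23 to the left of H19, Sf3b5 and Ltv1 around Plagl1, Cep41 to the left of Mest and Cobl to the right of Grb10. Mrpl23, a mitochondrial ribosomal protein, was higher (log2 difference 0.68, SE 0.11, adjusted p = 0.00221), with overlapping libraries, and did not pass in the values as deposited (0.25, adjusted p = 0.178). Cobl, an actin nucleator, rose from 1.77 ± 1.30 to 13.4 ± 1.61 FPKM (2.30, SE 0.26, adjusted p = 0.000366), opposite to Grb10. Sf3b5, Ltv1 and Cep41 did not pass (adjusted p = 0.319, 0.0771 and 0.457), although Sf3b5 was lower in the values as deposited (adjusted p = 0.0222) and Ltv1 without 3D mouse 4 (adjusted p = 0.0283).

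The RNAs of a few of the genes that keep imprints differed between the cultures. Of 18 genes on the list, Dppa3 was at 0 everywhere. Of 17 tested 2 (11.8%) fell, 4 (23.5%) rose and 11 did not pass, beside 20.3% lower and 21.2% higher of all genes. Zfp57, the zinc finger protein that binds TGCCGC on the methylated allele, had 7.93, 17.3, 18.8 and 11.5 FPKM in 2D and 0.210, 1.19, 2.81 and 0.586 FPKM in 3D (log2 difference -2.93, SE 0.38, adjusted p = 0.000684). Zfp445, which acts beside it, went the other way, from 16.6 ± 2.70 to 26.7 ± 3.42 FPKM (0.79, SE 0.14, adjusted p = 0.00344). Setdb1, the histone methyltransferase that such factors recruit, rose from 7.17 ± 1.15 to 13.4 ± 1.5 FPKM (adjusted p = 0.00379), and Tet2, an enzyme that oxidizes methylated cytosine, from 2.92 ± 1.09 to 10.9 ± 1.66 FPKM (1.45, SE 0.20, adjusted p = 0.000827). Ctcfl rose from 0.750 ± 0.102 to 1.85 ± 0.378 FPKM (adjusted p = 0.0136), a call lost when the fit kept only genes averaging 1 FPKM or more (adjusted p = 0.101). Dnmt3l fell from 0.989 ± 0.249 FPKM to 0 in all 3D libraries (adjusted p = 3.13e-06). Dnmt1 and Uhrf1, which maintain methylation in dividing cells, did not pass, and neither did Trim28 and Ctcf.

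Partners of the network's products were also split. Of 13 genes, 5 (38.5%) fell, 4 (30.8%) rose and 4 did not pass, beside 20.3% lower and 21.2% higher of all genes. Hmga2, a chromatin protein of growing mesenchyme, had 31.2, 55.9, 60.1 and 21.6 FPKM in 2D and 2.23, 8.05, 6.52 and 4.04 FPKM in 3D (log2 difference -2.80, SE 0.45, adjusted p = 0.00187). The IGF2 messenger RNA binding proteins Igf2bp1 (1.64 against 0.0234 FPKM, adjusted p = 0.000144), Igf2bp2 (16.6 against 8.19 FPKM, adjusted p = 0.0397) and Igf2bp3 (8.43 against 1.26 FPKM, adjusted p = 0.00346) fell. Plag1, a zinc finger factor related to Plagl1, fell from 1.33 ± 0.354 to 0.0527 ± 0.0409 FPKM (-1.28, SE 0.13, adjusted p = 0.000166), the reverse of Plagl1. The receptors that GRB10 binds were higher in 3D, Igf1r at 53.5 ± 9.90 against 19.6 ± 3.35 FPKM (1.69, SE 0.16, adjusted p = 0.000156) and Insr at 11.5 ± 1.24 against 6.05 ± 0.528 FPKM (0.70, SE 0.11, adjusted p = 0.00159). Irs2, their substrate, was higher as well (10.1 against 4.99 FPKM, adjusted p = 0.0263), while the other substrate on the list, Irs1, did not pass (log2 difference -0.06, adjusted p = 0.912) and overlapped. Notch1, the receptor of the family that DLK1 resembles a ligand of, had 2.32, 0.868, 0.854 and 2.30 FPKM in 2D and 67.5, 59.7, 40.9 and 33.8 FPKM in 3D (4.4, SE 0.35, adjusted p = 5.67e-05). With 1 library left out, Igf2bp2 lost its call in 4 fits (without 2D mouse 2, 3 or 4, or 3D mouse 7) and Irs2 in 4 (without 2D mouse 2 or 5, or 3D mouse 5 or 7), at adjusted p values between 0.0642 and 0.0947. Igf2bp2 also lost it with no filter (adjusted p = 0.0703). With the mouse as a block, none of the regulators, of the partners or of all 18862 genes passed by limma. An unadjusted p below 0.05 was reached by 5 of 17 regulators and 5 of 13 partners, beside 5216 of all genes.

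**Figure D5:**
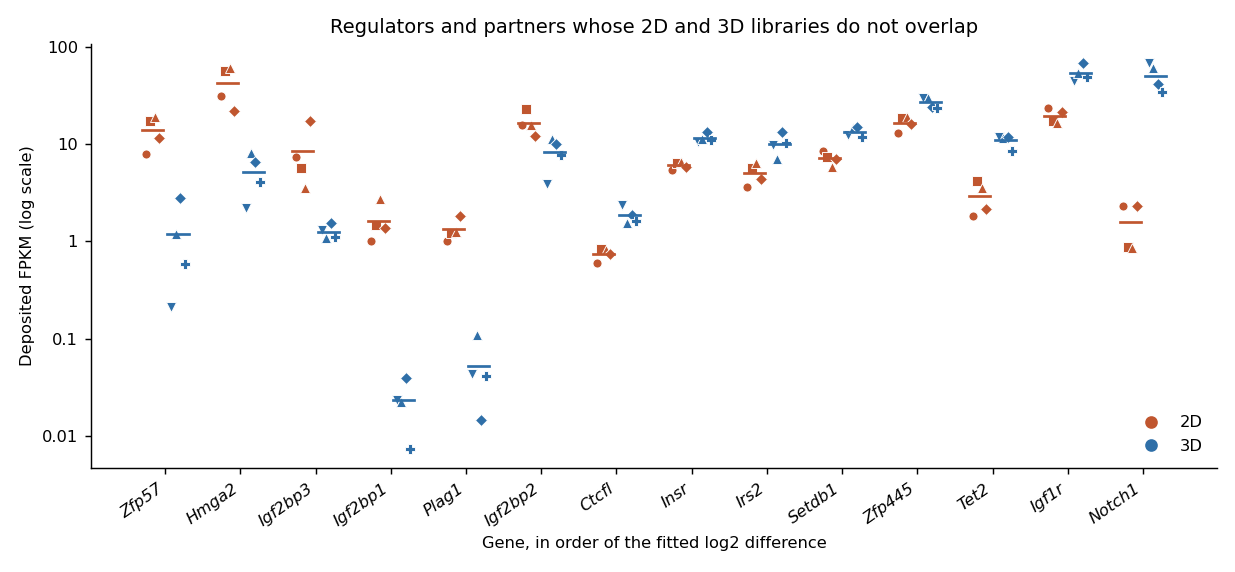
Deposited FPKM (vertical log axis) in each library of the imprint regulators and partners with a mean of at least 1 FPKM whose 2D (orange) and 3D (blue) libraries do not overlap, with a marker for each mouse as in the plot of the members and a bar at each mean. Zfp57, Hmga2, the Igf2bp genes and Plag1 are lower in 3D, and Notch1 and Igf1r stand highest in 3D.

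The genes whose profile over the 8 libraries was nearest to the leading 2D members were found by the root mean square difference of log2 values centred on each gene. For Rian they were Mmp2 (0.224), Wisp1 (0.241), Dpysl3 (0.320), Glipr2 (0.344) and Nnmt (0.372). For Meg3 they were Sulf1 (0.433), Ccl7 (0.465), Wisp1 (0.467), Nnmt (0.471) and Mmp2 (0.537). Nnmt, Wisp1 and Mmp2 were near both RNAs. For Grb10 they were Timp3 (0.503), Lhfp (0.665), F2r (0.740), Dusp1 (0.742) and Zfp57 (0.749). Any gene that was near 0 in 3D and had a 2D level like that of Rian or Meg3 comes near them by this measure. Genes near 0 in 3D with a larger or smaller log2 difference than Rian (-6.54) do not, such as Col1a2 (-10.2) and Rtl1 (-2.31).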

How the data were processed

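The authors depleted ribosomal RNA, made directional paired-end libraries, mapped trimmed reads with TopHat and estimated FPKM with Cufflinks. Each library has 1 table of FPKM as deposited by the authors, and these values are not quantile normalized, although the methods name that step. The submitters' processing notes name mm10. The annotation and the use of strand in counting are not given in the sources used here. Genes at 0 in all 8 libraries (5484) were left out, the other 18862 were quantile normalized, and log2(FPKM + 1) was fitted with limma 3.58.1 in R 4.3.3 (empirical Bayes with intensity trend, no covariate), with Benjamini-Hochberg adjustment over all genes tested. The members and the gene lists were chosen with earlier results of these data known.

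The genes named are all members, imprinted genes averaging 1 FPKM or more in either culture, the nearest coding neighbours within 250 kb at that level, regulators and partners at that level whose libraries do not overlap, and the 5 nearest profiles of the 3 highest 2D members. A few others, such as Hymai, Cpa4, Slc38a4, Dio3, Dnmt3l, the small RNAs, the genes of the 2D pairs and regulators or neighbours that did not pass, were named after their values were seen. Fragment counts were not used here. The depth of each library, from 14.4 to 17.3 M fragments, was read from the spacing of low FPKM in 875 genes of 3000 nt or more (scan from 5 to 25 M). Positions, promoter windows and microRNAs are those of RefSeq on GRCm38.p6, in which H19 has no promoter window. The model was checked on simulated data with known changes.

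Mice 4 and 5 gave both cultures, as the labels state. As a check of pairing over 12583 genes, departures from the group mean in the 2D and the 3D library had a correlation of -0.05 within mouse 4 and of -0.11 within mouse 5. Alternatives were the mouse as a block or random effect, and only mice 4 and 5 without a term for the mouse. Others were values as deposited, no trend, a pseudocount of 0.1, a mean of at least 1 FPKM, no filter, and each library left out. A fit without genes under 300 nt and a block with mice 4 and 5 exchanged in 3D were chosen after seeing the data.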

Additional observations from a re-analysis of the deposited data

Results flagged for a closer look

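In groups of 4 libraries, 1 library stood apart by Dixon's test in 11 of 102 groups screened, where chance flags about 1 in 20. For 3 of the 11 the comparison with chance has no meaning, since 1 value above 0 beside 3 zeros stands apart by construction. In 2D, mouse 4 was low for Rian (63.0 FPKM, the others between 122 and 137) and Mirg (2.78 FPKM, the others between 7.38 and 7.60) and high for H19 (1.84 FPKM, the others between 0.167 and 0.269) and Igf2 (6.22 FPKM, the others between 0.0495 and 0.278). Htr2a was low in 2D mouse 3 (4.07 FPKM, the others between 14.2 and 17), and Ube3a in 2D mouse 5 (28.0 FPKM, the others between 30.6 and 30.8). In 3D, these lone values above 0 were 0.0193 FPKM for Rian in mouse 1, 0.0130 FPKM for Rtl1 in mouse 5 and 0.484 FPKM for Peg12 in mouse 1. Igf2r was low in 3D mouse 7 (37.3 FPKM, the others between 46.6 and 46.9), and Peg13 in 3D mouse 4 (3.09 FPKM, the others between 4.95 and 5.27).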

How the results depend on the processing

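With the mouse as a replicate block, limma called 0 imprinted genes outside the members and 0 of all genes tested, lower or higher, at 1 residual degree of freedom (5216 genes had an unadjusted p below 0.05). The block with mice 4 and 5 exchanged in 3D, chosen after seeing the data, also called 0 (5306 such genes). Only mice 4 and 5, fitted without a term for the mouse, gave 4 imprinted genes higher, and 1432 lower and 1788 higher genes in all. Leaving out 1 library gave between 13 and 18 imprinted genes lower and between 10 and 11 higher, and between 3204 and 3835 lower and between 3393 and 4051 higher over all genes. The other alternatives kept these counts within 1.5 times. Among members, the log2 difference of Peg3 reversed in 3 fits that left out a library, to between -0.38 and -0.02, in a range of -0.38 to 0.64 over all 8, and a pseudocount of 0.1 moved 7 members, Rian to -9.83, with no reversal. Genes that did not pass reversed as well. As deposited, Cd81 was at -0.31, Snurf at 0.15, Zrsr1 at 0.15 and Peg13 at 0.17. In the block and with only mice 4 and 5, Blcap was at 0.227 and 0.228, Mcts2 at -0.0432 and -0.0434, and H13 at 0.132 and 0.128. With 1 library left out, Mcts2 ranged from -0.0355 to 0.0679, Zrsr1 from -0.2223 to 0.0313 and Peg13 from -0.1553 to 0.0532. The cause was not tested. Values under about 0.1 FPKM rest on 3 fragments or fewer for a transcript of 2 kb, so 3D values of Meg3, Rian and Dlk1 cannot be ranked.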
